A study of Mus musculus with 8 samples.

Results

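Voltage-gated potassium channel alpha subunits are the proteins that line the potassium-selective pore and carry the voltage sensor of these channels. The genes that encode them were taken by symbol, from the series Kcna, Kcnb, Kcnc, Kcnd, Kcnf, Kcng, Kcnh, Kcnq, Kcns and Kcnv, and 40 of the 55414 listed genes belonged to them, of which 36 are described. Of the 36, 30 had a mean of at least 1 CPM (a gene's count over the size of its library, after TMM scaling, a correction for library composition) over the 8 libraries, and 32 passed the expression filter and were tested. Transcripts were measured by bulk RNA-seq at E18.5 in mouse dorsal root ganglia (DRG), clusters of sensory neurons and glia beside the spinal cord. The 4 AD1 OE libraries had the genotype AdvillinCre/+;Rosa26Dach1/+, in which Cre recombinase, driven from the Advillin gene in sensory neurons, switches on a Dach1 copy at Rosa26. The 4 Control libraries had the genotype Advillin+/+;Rosa26Dach1/+, so both groups carried the Rosa26 lox-stop-lox-Dach1-IRES-EGFP allele and only AD1 OE carried Cre. Dach1, a transcriptional cofactor, normally becomes restricted to few DRG neuron subtypes. The study compared the groups to see what changes when sensory neurons of all subtypes express it late in development. It reports that Dach1 was at first restricted in AD1 OE embryos too, and was expressed again in all sensory neurons by E18.5. The Rosa26 line was kept on a mixed background, AD1 OE pups die around birth, and the whole ganglion was sequenced. The study counts its replicates as embryos, so p-values measure the spread between embryos, whose litters are not given. In whole ganglia, fewer cells of a type and less RNA per cell cannot be told apart from these counts alone. By staining at E18.5, the study reports similar numbers of Islet1, Prdm12, TrkB and TrkC neurons in both groups.

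Voltage-gated potassium channels open when the membrane depolarises and let potassium out, which ends the action potential, spaces the next one and sets how readily a neuron fires. Alpha subunits assemble as tetramers, mostly within a subfamily. The Kv1, Kv2, Kv3, Kv4 and Kv7 subunits and the EAG, ERG and ELK subunits form channels of their own. The Kv5, Kv6, Kv8 and Kv9 subunits do not: they are called electrically silent, and they assemble with Kv2 subunits and change how the resulting channel gates. In sensory neurons, Kv1 channels restrain firing at the axon, Kv2 channels carry much of the delayed rectifier current, Kv3 channels speed repolarisation, Kv4 channels carry the fast A-type current, and Kv7 channels carry the M current that damps repetitive firing.

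Depth ranged from 22339059 to 44025625 gene counts per library. Dach1 was between 91.5 and 102 CPM in AD1 OE and between 30.2 and 33.7 CPM in Control, as the labels require, and Avil, the gene that carries Cre, was at 51.99% of its Control level. Xist and the Y-linked genes showed AD1 OE replicates 1, 2 and 4 and Control replicate 4 to be male and the other 4 libraries female. Values within each sex are therefore given for the called channel genes, while the called partner genes were not split by sex. The female ratios rest on 1 AD1 OE library, replicate 3, and the male ratios on 1 Control library, replicate 4. Markers of the labelled tissue were present: the summed level of 8 sensory neuron markers was 8029 to 8768 CPM in AD1 OE, against 8466 to 8781 CPM in Control, and that of 8 glial markers 1253 to 1565 and 1282 to 1560 CPM, with 0 called in either list. Of 9 nociceptor markers, 4 were called lower (Calca, Tac1, Scn10a and Mrgprd), and their summed level was 3526 to 3772 CPM in AD1 OE, against 4201 to 4655 CPM in Control. The 8 markers of myelinated mechanoreceptors and proprioceptors summed to 1362 to 1450 and 1374 to 1486 CPM, with 0 called. Their list shares Cntnap2 with the Kv1 partner genes. Within it, Ntrk3 was higher in AD1 OE, by 0.30 on the log2 scale. Nefh and Cntnap2 were lower, with log2 fold changes of -0.24 and -0.30, and in each case the groups did not overlap. The groups of the other markers in this list overlapped. Markers of other cells had 0 called genes in each list. Their sums in AD1 OE and Control were 119 to 599 and 143 to 391 CPM for 8 skeletal muscle genes, 261 to 318 and 278 to 285 CPM for 6 endothelial genes, 4120 to 4554 and 3497 to 4212 CPM for 6 fibroblast genes, and 11.9 to 13.5 and 10.1 to 21.2 CPM for 8 spinal cord genes, of which the motor neuron markers Mnx1 and Chat were at most 0.450 CPM. Most of the spinal cord sum was Sox2ot, with means of 10.5 (AD1 OE) and 9.97 CPM (Control) and a log2 fold change of 0.08. Slc6a5 peaked at 5.44 CPM and Olig2 at 3.28 CPM among Control libraries, with AD1 OE peaks of 1.57 and 0.624 CPM. The median log2 fold change of the 5 tested spinal cord genes was -1.225, but the groups overlapped for each of them. Such transcripts were uneven among the Control libraries, where Slc6a5 ran from 0.592 to 5.44 CPM and Olig2 from 0.187 to 3.28 CPM. No listed marker was at 0 in all libraries. The part of these differences in the results that follow was not tested.

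Among the channel genes, Kcnv1, Kcna4, Kcng1, Kcnc2 and Kcnq5 fell and Kcnh8 and Kcna2 rose in AD1 OE. The decreases were the larger changes, from 2.58 (Kcnv1) to 0.38 (Kcnq5) on the log2 scale, while the increases were 0.36 and 0.32. A gene counted as called where edgeR's quasi-likelihood test gave an adjusted p (Benjamini-Hochberg) under 0.005 together with a log2 fold change beyond 0.25 in size. The 7 called genes were 23.3% of the 30 that averaged 1 CPM or more and 21.9% of the 32 tested. Over all 17721 tested genes, 2.57% were called, 1.78% lower and 0.784% higher, and 2.85% of those that averaged 1 CPM or more. The channel genes and the partner genes below were chosen with earlier results of these data known, so such shares only describe the lists. The median absolute log2 fold change was 0.24 for the 30 channel genes and 0.076 for all tested genes of at least 1 CPM, and the medians with sign were 0.006 and 0.001. The 4 AD1 OE libraries lay all below or all above the 4 Control libraries for 15 of the 30 (8 below, 7 above, 50%), against 13.0% of all tested genes. At an adjusted p under 0.05 with no fold limit, 14 channel genes passed, against 6.55% of all genes. DESeq2 called 13 channel genes, 7 lower and 6 higher, against 3.71% of all genes, and edgeR without the expression filter also called 13, against 2.05%. Kcnv1, Kcna4, Kcng1 and Kcnc2 were called in each of 17 other fits, 8 of which left out 1 library. Without AD1 OE replicate 1 or 2 or Control replicate 3, these 4 were the calls that remained.

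**Figure D1:**
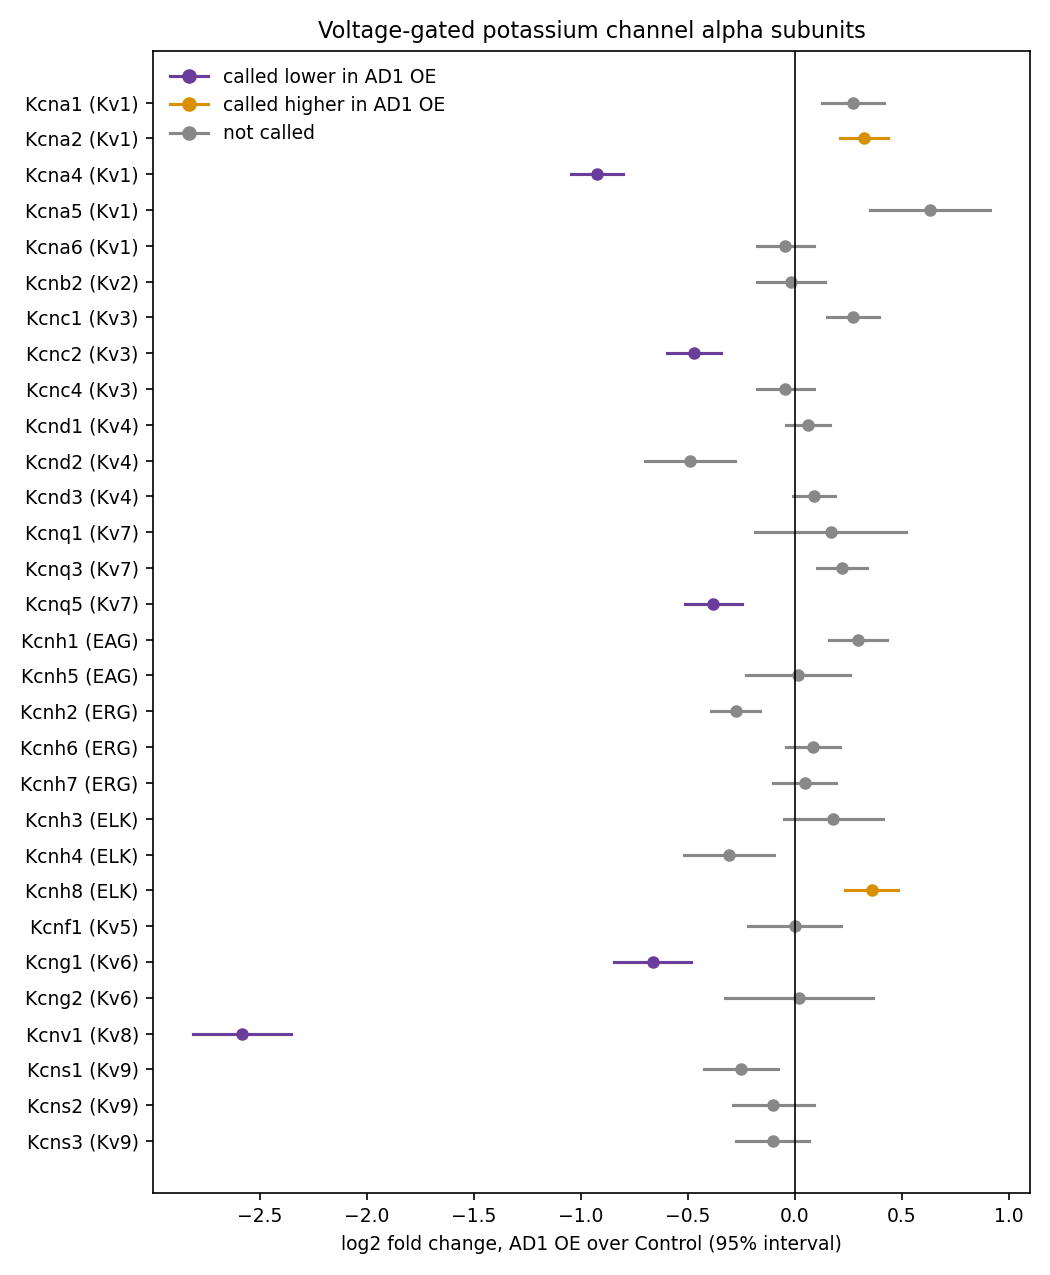
Log2 fold change of AD1 OE over Control for the 30 alpha subunit genes averaging 1 CPM or more, grouped by subfamily. Points are edgeR estimates from 4 libraries per group and lines their 95% intervals. Purple marks the 5 genes called lower, orange the 2 called higher, and Kcnv1 at -2.58 lies far to the left of the rest.

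The silent subunits held the largest change. Kcnv1 (ENSMUSG00000022342, chromosome 15) encodes Kv8.1, a silent subunit that pairs with Kv2 subunits and reduces or slows their current. Its level was 7.78, 5.21, 7.50 and 8.17 CPM in AD1 OE replicates 1 to 4 and 40.9, 45.7, 43.4 and 43.3 CPM in Control replicates 1 to 4. Every AD1 OE library lay far below every Control library, and AD1 OE replicate 2 was the lowest. The means were 7.16 ± 1.33 (AD1 OE) and 43.3 ± 1.96 CPM (Control), each with the SD over n = 4 libraries, which put AD1 OE at 16.7% of Control in the fit. Kcnv1 fell by 2.58 on the log2 scale, with a standard error of 0.10 and an edgeR adjusted p of 9.84e-08. The log2 ratio was -2.53 among female and -2.62 among male libraries.

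Kcng1 (ENSMUSG00000074575, chromosome 2) encodes Kv6.1, another silent partner of Kv2. It was at 6.01, 5.66, 6.81 and 6.30 CPM in AD1 OE, against 10.03, 10.2, 8.92 and 10.1 CPM in Control. The groups did not overlap, although Control replicate 3 stood below the other Control libraries. Kcng1 fell by 0.66 on the log2 scale (standard error 0.082, edgeR adjusted p 3.57e-04), with log2 ratios of -0.51 in females and -0.75 in males. The other Kv6 gene of at least 1 CPM, Kcng2, was low in both groups, at 1.73 ± 0.270 and 1.71 ± 0.176 CPM.

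The remaining silent subunits were not called. Kcns1, which encodes Kv9.1 and has been linked to pain sensitivity, had the highest level per kilobase of the Kv9 genes. It was at 15.2, 13.7, 13.8 and 11.9 CPM in AD1 OE, against 17.4, 16.5, 16.5 and 14.996 CPM in Control. The groups overlapped only through AD1 OE replicate 1 and Control replicate 4, and the log2 fold change was -0.25 (95% interval -0.42 to -0.08, edgeR adjusted p 0.097). Kcnf1, the single Kv5 gene, was at 7.28, 6.99, 8.80 and 8.06 CPM in AD1 OE, against 7.65, 8.88, 7.62 and 6.98 CPM in Control. These groups overlapped fully, with a 95% interval of -0.22 to 0.22 for the log2 fold change. The other two Kv9 genes, Kcns2 and Kcns3, had log2 fold changes of -0.10 and -0.10, and their 95% intervals included 0.

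To compare the silent subunits with each other, levels were divided by exon length and summed. The silent genes together were at 15.5, 13.9, 14.9 and 14.7 CPM per kb of exon in AD1 OE and 24.3, 26.0, 24.2 and 24.2 CPM per kb in Control. The silent sum thus lay lower in every AD1 OE library. Without Kcnv1, the silent sum was 13.2 ± 0.441 CPM per kb in AD1 OE and 15.2 ± 0.648 CPM per kb in Control, so that Kcnv1 made up most of the difference. Kcnv1 alone was 10.5% ± 1.67 of the silent sum in AD1 OE and 38.3% ± 1.16 in Control (SD over 4 libraries). With the mean transcript length in place of the exon length these shares were 13.3% and 44.2%.

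**Figure D2:**
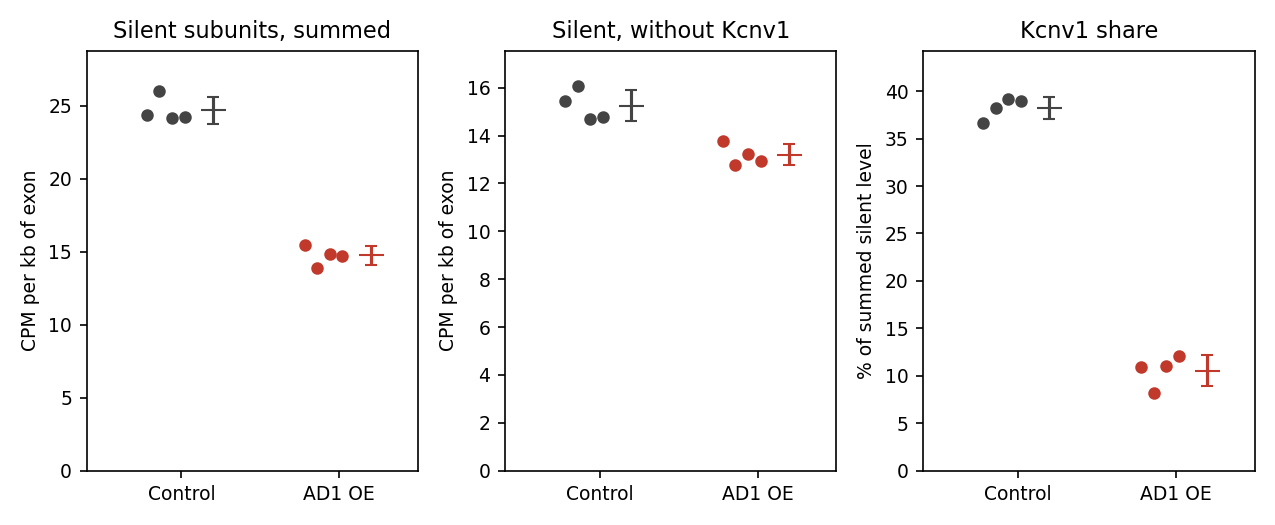
Summed level of the silent subunit genes (left, CPM per kb of exon), the same sum without Kcnv1 (middle, CPM per kb of exon) and Kcnv1 as a percent of the silent sum (right) in each of 4 Control (grey) and 4 AD1 OE (red) libraries, with mean and SD beside the points. The silent sum is 24.2 to 26.0 in Control and 13.9 to 15.5 in AD1 OE, and the gap is narrower without Kcnv1.

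Kcnb2, which encodes the pore subunit Kv2.2, was at 81.9, 90.6, 75.5 and 91.1 CPM in AD1 OE, against 75.01, 93.7, 87.8 and 86.4 CPM in Control. The groups overlapped, and the log2 fold change was -0.02 with a 95% interval of -0.18 to 0.14. Among 5 Kv2 partner genes, Amigo1 (ENSMUSG00000050947, chromosome 3), whose adhesion protein travels with Kv2 channels, rose from 64.8 ± 2.76 to 91.4 ± 2.20 CPM. Its libraries were at 94.3, 91.6, 90.7 and 89.05 CPM in AD1 OE, against 62.9, 68.9, 63.98 and 63.5 CPM in Control, with no overlap. The increase was 0.50 on the log2 scale (standard error 0.040, edgeR adjusted p 1.28e-05), and it was called in each of 17 other fits. Amigo2, Amigo3, Vapa and Vapb had log2 fold changes between -0.10 and 0.05 and were not called.

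Within the Kv1 subfamily, Kcna4 fell and Kcna2 rose. Kcna4 (ENSMUSG00000042604, chromosome 2) encodes Kv1.4, a rapidly inactivating subunit known from small-diameter sensory neurons. It was at 12.005, 11.2, 11.1 and 10.97 CPM in AD1 OE, against 21.01, 21.4, 21.7 and 22.03 CPM in Control. Both groups were tight, and no libraries overlapped. Kcna4 fell by 0.92 on the log2 scale, to 52.7% of Control (standard error 0.056, edgeR adjusted p 1.91e-06), with log2 ratios of -0.94 in females and -0.95 in males. Kcna2 (ENSMUSG00000040724, chromosome 3) encodes Kv1.2, which sits beside the nodes of myelinated axons. It was at 254, 262, 230.1 and 253 CPM in AD1 OE, against 182, 210.2, 204 and 201 CPM in Control. The lowest AD1 OE library, replicate 3, still lay above the highest Control library, replicate 2. The increase was 0.32 on the log2 scale (standard error 0.052, edgeR adjusted p 0.00221), with log2 ratios of 0.21 in females and 0.35 in males. With sex as a covariate its adjusted p was 0.0125, and without AD1 OE replicate 1, 2 or 4 or Control replicate 3 or 4 it was 0.00716 to 0.00986, above the limit of 0.005. Of the summed Kv1 level per kilobase, Kcna4 made up 3.53% in AD1 OE and 7.09% in Control, and Kcna2 31.6% and 26.6%.

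Since these Kv1 genes moved in opposite directions, the 250 bases before each RefSeq start are shown (GRCm38.p6, plus strand, a different build from that of the counts). Windows were listed for 5 of the 7 called genes (Kcna2, Kcna4, Kcnc2, Kcnh8 and Kcnq5). Motifs were searched on both strands, the GC box as the letters GGGCGG, an E-box as the letters CAGCTG and the TATA box as the letters TATAAA, and capitals mark the matches.
Kcna4, chr2:107290339-107290588: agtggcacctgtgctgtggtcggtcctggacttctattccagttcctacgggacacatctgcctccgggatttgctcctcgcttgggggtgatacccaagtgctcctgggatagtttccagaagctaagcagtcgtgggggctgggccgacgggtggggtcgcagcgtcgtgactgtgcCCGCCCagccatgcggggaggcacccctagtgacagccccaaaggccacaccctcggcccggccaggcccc
Kcna2, chr3:107101317-107101566: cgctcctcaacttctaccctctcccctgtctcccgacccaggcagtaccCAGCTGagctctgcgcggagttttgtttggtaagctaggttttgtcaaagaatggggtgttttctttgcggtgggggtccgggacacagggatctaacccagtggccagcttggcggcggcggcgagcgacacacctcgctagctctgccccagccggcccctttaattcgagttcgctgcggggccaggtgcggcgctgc
The Kcna4 window held 1 GC box, read on the minus strand, and the Kcna2 window 1 E-box of the letters CAGCTG. Other forms of the E-box were not searched in either window. Over 32851 windows of this length, 32.7% held GGGCGG, 13.0% CAGCTG and 12.4% TATAAA. The G+C content was 65.2% for Kcna4 and 62.4% for Kcna2, against a median of 52.4% over all windows. A match is a description of letters and not a binding site, and a motif without a match is only absent from this window.

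The remaining Kv1 genes were not called. Kcna1, which encodes Kv1.1, the usual partner of Kv1.2 in axons, was at 42.01, 43.5, 37.6 and 41.4 CPM in AD1 OE, against 31.9, 36.5, 31.3 and 36.3 CPM in Control. AD1 OE lay above Control in all libraries, by 0.27 on the log2 scale (edgeR adjusted p 0.0291). Kcna5, which encodes Kv1.5, was low, at 6.24, 6.95, 6.85 and 5.54 CPM in AD1 OE, against 4.32, 4.92, 3.26 and 3.93 CPM in Control. Again AD1 OE lay above, with a log2 fold change of 0.63 (95% interval 0.35 to 0.91, edgeR adjusted p 0.0108). DESeq2 called Kcna1 (adjusted p 0.00314) and Kcna5 (adjusted p 4.62e-04), as did edgeR without the filter. Kcna6, which encodes Kv1.6, had the highest level per kilobase of the described genes by exon length. It was at 181, 197, 204 and 168 CPM in AD1 OE, against 210.5, 194, 188 and 182 CPM in Control. The groups overlapped, with a 95% interval of -0.18 to 0.09 for the log2 fold change. Of the Kcna6 exon bases 39.6% overlap the antisense gene Gm26673, and since the strand setting of the counting is not given, its level is uncertain. None of the 3 beta subunit genes of Kv1 (Kcnab1, Kcnab2 and Kcnab3) was called, with log2 fold changes from -0.08 to 0.05.

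**Figure D3:**
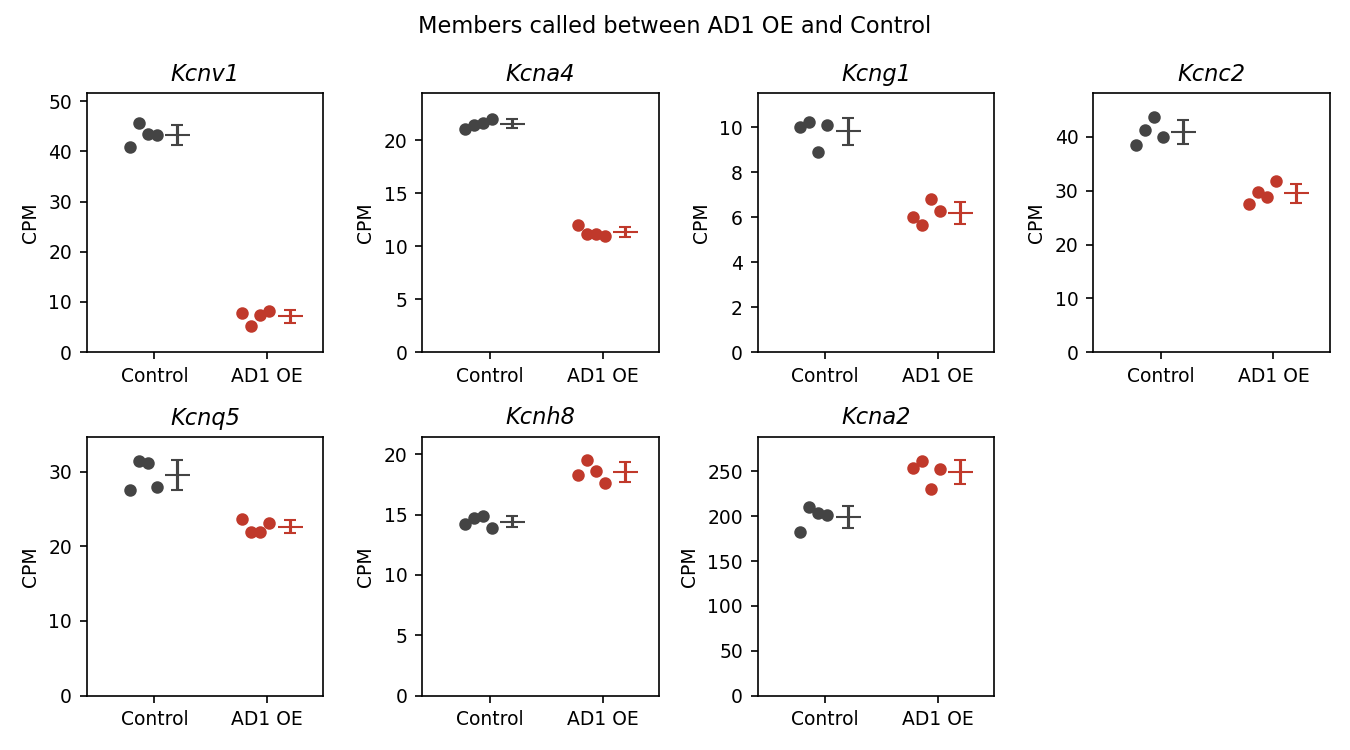
CPM of the 7 called alpha subunit genes in each of 4 Control (grey) and 4 AD1 OE (red) libraries, with mean and SD beside the points and each axis starting at 0. In no panel do the groups overlap, and the gap is widest for Kcnv1, at 40.9 CPM or more in Control and 8.17 CPM or less in AD1 OE.

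Proteins that anchor Kv1 channels at the axon and synapse, with their secreted ligands, formed a list of 11 genes, of which 1 was called, against 2.57% of all genes. Dlg2 (ENSMUSG00000052572, chromosome 7), a scaffold protein known as PSD-93, was at 25.5, 25.9, 23.1 and 26.8 CPM in AD1 OE, against 33.2, 35.3, 34.1 and 34.8 CPM in Control. The groups did not overlap. Dlg2 fell by 0.44 on the log2 scale (standard error 0.055, edgeR adjusted p 3.86e-04). The rest had log2 fold changes from -0.30 for Cntnap2 to 0.18 for Adam22, both adhesion proteins of the complex, and 5 of the 11 had an adjusted p under 0.05, against 6.55% of all genes. Cntnap2 was at 139, 145, 123 and 138 CPM in AD1 OE, against 153, 178, 163 and 174 CPM in Control, without overlap (edgeR adjusted p 0.00795). DESeq2 (adjusted p 8.91e-05), edgeR without the filter and edgeR with sex as a covariate (adjusted p 0.00225) called it, as did the fit without Control replicate 1 (adjusted p 0.00329).

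Of the Kv3 genes, Kcnc2 fell. Kcnc2 (ENSMUSG00000035681, chromosome 10) encodes Kv3.2, a fast delayed rectifier subunit. Its libraries were at 27.6, 29.8, 28.9 and 31.8 CPM in AD1 OE, against 38.4, 41.3, 43.7 and 39.9 CPM in Control. The highest AD1 OE library lay well below the lowest Control library. The decrease was 0.47 on the log2 scale, with a standard error of 0.058 and an edgeR adjusted p of 3.57e-04, and the log2 ratios were -0.51 in females and -0.43 in males. Kcnc1, which encodes the closely related Kv3.1 of fast-firing neurons, was at 52.8, 52.6, 56.7 and 52.2 CPM in AD1 OE, against 45.8, 48.1, 40.99 and 42.4 CPM in Control. All AD1 OE libraries lay above Control, opposite to Kcnc2, and replicate 3 was the highest. The difference of 0.27 on the log2 scale (standard error 0.056, edgeR adjusted p 0.0119) missed the limit, while DESeq2 called it (adjusted p 2.70e-04), as did edgeR without the filter. Kcnc4, which encodes Kv3.4, an inactivating subunit found in nociceptors, was at 74.2, 76.3, 69.96 and 84.7 CPM in AD1 OE, against 72.9, 82.04, 76.2 and 83.1 CPM in Control. It was the highest of the described Kv3 genes per kilobase, its groups overlapped, and the 95% interval of its log2 fold change was -0.18 to 0.09.

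In the Kv4 group, no pore subunit was called and 5 of 6 partner genes were called lower, against 1.78% of all genes. These partner genes, too, were chosen with earlier results of these data known. Kcnd1, which encodes Kv4.1 and had the highest level per kilobase of the Kv4 genes, was at 159, 154, 153 and 171 CPM in AD1 OE, against 141, 158, 159 and 152 CPM in Control. Its groups overlapped, with a 95% interval of -0.04 to 0.16 for the log2 fold change. Kcnd3, which encodes Kv4.3, had an interval of -0.01 to 0.19. Kcnd2, which encodes Kv4.2, the A-type subunit of many central neurons, was low, at 5.18, 5.03, 5.13 and 4.68 CPM in AD1 OE, against 8.01, 6.14, 7.11 and 6.98 CPM in Control. Every AD1 OE library lay below Control, with a log2 fold change of -0.49 (95% interval -0.70 to -0.28, edgeR adjusted p 0.00856). DESeq2 (adjusted p 0.00195) and edgeR without the filter (0.00301) called Kcnd2.

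The Kv4 partners are the KChIP proteins, calcium-binding subunits that raise the surface level of Kv4 channels, and the DPP-like proteins, which speed their gating. For all 6 genes, every AD1 OE library lay below every Control library, where 13.0% of all genes had groups without overlap in either direction, and the median log2 fold change was -0.49. Kcnip4 (ENSMUSG00000029088, chromosome 5; KChIP4) was at 11.6, 15.4, 14.2 and 14.2 CPM in AD1 OE, against 21.7, 24.2, 20.4 and 24.5 CPM in Control. It fell by 0.73 on the log2 scale (standard error 0.092, edgeR adjusted p 4.33e-04). Kcnip1 (ENSMUSG00000053519, chromosome 11; KChIP1) was at 10.96, 10.1, 10.4 and 9.89 CPM in AD1 OE, against 16.8, 15.5, 17.5 and 16.97 CPM in Control. The decrease was 0.69 (standard error 0.064, edgeR adjusted p 4.16e-05), nearly that of Kcnip4. Kcnip2 (ENSMUSG00000025221, chromosome 19; KChIP2) was at 20.5, 21.03, 17.4 and 19.7 CPM in AD1 OE, against 27.9, 30.6, 30.1 and 31.9 CPM in Control, a log2 fold change of -0.62 (standard error 0.068, edgeR adjusted p 1.56e-04). These 3 KChIP genes were called in each of 17 other fits. Kcnip3, whose product DREAM also acts as a transcriptional repressor, was at 28.5, 29.1, 30.1 and 31.7 CPM in AD1 OE, against 33.3, 37.8, 34.5 and 36.7 CPM in Control. It was not called at -0.26 on the log2 scale (edgeR adjusted p 0.0178), while DESeq2 called it (adjusted p 0.00164).

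The DPP-like genes moved less. Dpp10 (ENSMUSG00000036815, chromosome 1) was at 38.5, 41.9, 36.4 and 40.5 CPM in AD1 OE, against 49.05, 51.1, 48.8 and 53.7 CPM in Control. It fell by 0.37 on the log2 scale (standard error 0.054, edgeR adjusted p 0.00132), but its adjusted p was 0.00769 without AD1 OE replicate 1, 0.00651 without Control replicate 2 and 0.00612 without Control replicate 4. Dpp6 (ENSMUSG00000061576, chromosome 5) was at 372, 370.2, 357 and 387 CPM in AD1 OE, against 427, 469, 447 and 441 CPM in Control. Its decrease of 0.26 (standard error 0.044, edgeR adjusted p 0.00289) lay just past the fold limit. The call was lost with sex as a covariate, with the replicate number as a block and without composition scaling. Of the fits without 1 library, all but that without Control replicate 1 lost it (adjusted p 0.00513 to 0.0130). The summed nociceptor markers were also lower in every AD1 OE library, and their part in the Kv4 partner values was not tested.

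**Figure D4:**
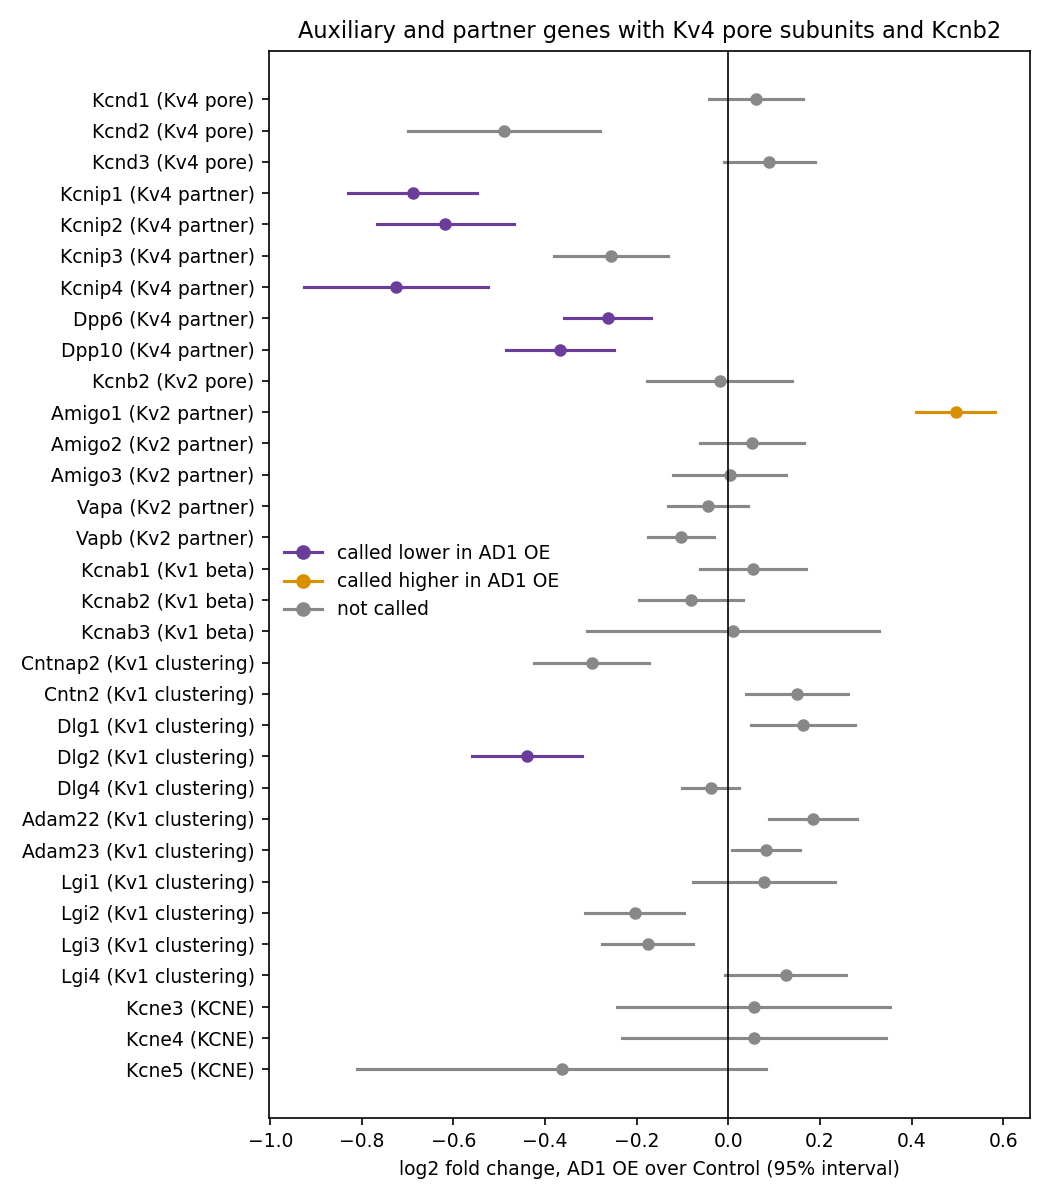
Log2 fold change of AD1 OE over Control, with 95% intervals, for the 28 tested auxiliary and partner genes and for the Kv4 pore subunits and Kcnb2. The 6 Kv4 partners lie between -0.73 and -0.26, left of the pore subunits Kcnd1 and Kcnd3. The pore subunit Kcnd2, at -0.49 and not called, lies among them. Amigo1 at 0.50 is the single partner gene called higher.

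Of all 30 partner genes, 28 were tested and 7 were called (6 lower, 1 higher), which was 25% of those tested, against 2.57% of all genes. Since the list was chosen with earlier results of these data known, this share is a description only. At an adjusted p under 0.05 with no fold limit, 12 passed, against 6.55% of all genes. The KCNE genes encode small single-pass proteins that modify Kv7 and other channels. Kcne3, Kcne4 and Kcne5 were tested and not called, with log2 fold changes from -0.36 to 0.06, and Kcne1 and Kcne2 did not pass the filter.

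Among the Kv7 genes, some of which encode subunits of the channels that carry the M current, Kcnq5 fell. Kcnq5 (ENSMUSG00000028033, chromosome 1) encodes Kv7.5. Its libraries were at 23.7, 21.9, 21.9 and 23.1 CPM in AD1 OE, against 27.6, 31.5, 31.1 and 27.96 CPM in Control. The groups did not overlap. Kcnq5 fell by 0.38 on the log2 scale (standard error 0.061, edgeR adjusted p 0.0022), with log2 ratios of -0.46 in females and -0.29 in males. Its adjusted p was 0.00929 with sex as a covariate, and 0.00568 to 0.0103 without any 1 AD1 OE library or without Control replicate 2 or 3. Kcnq3, which encodes the Kv7.3 subunit of the M channel, was at 55.5, 57.03, 53.6 and 54.8 CPM in AD1 OE, against 43.1, 50.6, 49.6 and 46.2 CPM in Control. All AD1 OE libraries lay above Control, and the log2 fold change of 0.22 was under the fold limit (edgeR adjusted p 0.0291). Kcnq1 (Kv7.1), a subunit of heart and epithelia, was near the level limit, at 1.28 ± 0.123 and 1.14 ± 0.130 CPM.

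The Kcnh genes form the EAG, ERG and ELK subfamilies, and Kcnh8 was the single one called. Kcnh8 (ENSMUSG00000035580, chromosome 17) encodes the ELK subunit Kv12.1. It was at 18.2, 19.6, 18.6 and 17.6 CPM in AD1 OE, against 14.2, 14.7, 14.9 and 13.9 CPM in Control. The groups did not overlap. Kcnh8 rose by 0.36 on the log2 scale (standard error 0.057, edgeR adjusted p 0.0022), with log2 ratios of 0.35 in females and 0.41 in males. Its adjusted p was 0.00563 with sex as a covariate and 0.00531 to 0.0103 without any 1 library other than AD1 OE replicate 4. The other ELK genes, Kcnh3 (Kv12.2) and Kcnh4 (Kv12.3), had log2 fold changes of 0.18 and -0.31 and were not called, and the Kcnh4 libraries of AD1 OE all lay below Control (edgeR adjusted p 0.0937).

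In the EAG subfamily, Kcnh1, which encodes Kv10.1, was at 47.3, 44.6, 47.5 and 41.6 CPM in AD1 OE, against 37.4, 39.9, 36.7 and 33.7 CPM in Control. AD1 OE lay above Control in all libraries, with a log2 fold change of 0.29 (standard error 0.062, edgeR adjusted p 0.0135). Kcnh1 was called by DESeq2 (adjusted p 4.10e-04), by edgeR without the filter and with sex as a covariate (adjusted p 0.00409). For Kcnh5 (Kv10.2) the log2 fold change was 0.01, with a 95% interval of -0.23 to 0.26. In the ERG subfamily, Kcnh2, which encodes Kv11.1, the channel known as hERG in humans, was at 78.5, 68.3, 81.6 and 72.6 CPM in AD1 OE, against 94.6, 91.8, 89.2 and 89.2 CPM in Control. AD1 OE lay below Control in all libraries. The difference was -0.28 on the log2 scale (standard error 0.053, edgeR adjusted p 0.00746), and Kcnh2 was called by DESeq2, by edgeR without the filter and without AD1 OE replicate 3 (adjusted p 0.00351). Kcnh6, which encodes Kv11.2, was at 104, 87.7, 92.5 and 102 CPM in AD1 OE, against 85.6, 91.3, 97.1 and 90.5 CPM in Control. These groups overlapped, and the 95% interval of the log2 fold change was -0.04 to 0.21. For Kcnh7 (Kv11.3), of whose exon bases 4.57% overlap Gca, the interval was -0.10 to 0.19. Of the ERG genes, Kcnh6 had the highest level per kilobase by exon length and Kcnh2 by mean transcript length.

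Of the 23 uncalled genes with at least 1 CPM, 7 had an adjusted p under 0.05, 2 with lower and 5 with higher values in AD1 OE (Kcnd2, Kcnh2, and Kcna5, Kcnh1, Kcnc1, Kcna1, Kcnq3). The other 16 had log2 fold changes from -0.31 to 0.18, and their 95% intervals together spanned -0.52 to 0.52. By level per kilobase of exon over all libraries, Kcna6 at 32.1, Kcnd1 at 29.5, Kcnh6 at 26.4 and Kcnc4 at 21.1 CPM per kb led the described genes. By mean transcript length, Kcnd1 at 51.6 CPM per kb stood above Kcna6 at 44.3, so the order depends on the length used. Kcnv1 ranked the seventh of these 30 genes in Control, at 9.44 CPM per kb of exon, and number 24 in AD1 OE, at 1.56 CPM per kb.

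The 6 genes under 1 CPM were Kcna3, Kcna7, Kcna10, Kcng3, Kcng4 and Kcnv2. Kcna3, which encodes the Kv1.3 of immune cells, averaged 1.09 ± 0.471 CPM in AD1 OE, against 0.821 ± 0.347 CPM in Control, and Kcng4 0.497 ± 0.0880 and 0.358 ± 0.158 CPM. Both were tested and not called, with log2 fold changes of 0.43 and 0.43 and 95% intervals that included 0. Kcna7, Kcna10, Kcng3 and Kcnv2 did not pass the filter. Their highest library was at 0.436 CPM, in Control replicate 2 for Kcna7. Kcnv2, the other Kv8 gene, was at most 0.157 CPM in any library, so the Kv8 level of these ganglia rested on Kcnv1.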

How the data were processed

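RNA was extracted from dissected ganglia, and libraries were made with a stranded poly(A) kit and sequenced on a NovaSeq instrument. Per the labels and the methods of the study, the authors used bcl2fastq 2.20.0.422, aligned reads to GRCm39 with STAR 2.7.8a and ran featureCounts 2.0.1 on Ensembl genes. The deposited values are raw counts, 1 file per library, without scaling or filtering, and 0 lines name no gene. The strand setting of the counting is not given in the sources used here, so genes that overlap an antisense gene are uncertain. Group and replicate came from the sample titles. Symbols, exon lengths and overlaps came from GENCODE M21 on GRCm38 (52081 of 55414 IDs had a symbol), and Kcne5 was found under an older symbol.

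The counts were fitted with edgeR 4.0.16 in R 4.3.3, after filterByExpr on the groups and TMM scaling. Genotype was the sole term of the quasi-likelihood F test, and p-values were adjusted by Benjamini-Hochberg over the 17721 genes tested. The thresholds were those of the study for this comparison. CPM values use TMM-scaled library sizes, and means are printed with the SD over 4 libraries. Standard errors and 95% intervals come from the same fit. Counts carry no molecular identifiers, so depth covers counting error only, and the spread between libraries was the limit for genes above a few CPM. Levels were compared between genes per kilobase of exon, with the mean transcript length as an alternative.

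The channel genes, the 30 partner genes and the marker lists were chosen with earlier results of these data known. Of the 40 channel genes, 4 are not reported here and enter no count of channel genes. Each other one with a mean of at least 1 CPM is accounted for. Values in every library are given for called genes and for channel genes called by some other test, scaling, filter or covariate. They are also given for the highest described gene per kilobase of each subfamily. Alternatives were DESeq2 1.42.0, limma-voom (limma 3.58.1), RLE or upper-quartile scaling or none, the whole table without a filter, a filter on 1 CPM reached in 4 libraries or more, other thresholds, sex as a covariate, the replicate number as a block, and leaving out each library. Sex was read from Xist against Y-linked genes. The edgeR test was tested on simulated data. Replicates of a group never agreed within counting noise (chi-square per degree of freedom 4.02 to 11.1), and each library was counted once.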

Additional observations from a re-analysis of the deposited data

Results flagged for a closer look

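Each group of 4 libraries was examined for a library far from the other 3, by the ratio of the gap to the whole range (Dixon's test), for the channel genes of at least 1 CPM and the named partner genes. Of 78 groups, 2 passed, and chance alone gives about 1 in 20. Kcnc1 was at 56.7 CPM in AD1 OE replicate 3, the female library of that group, against 52.2 to 52.8 CPM in replicates 1, 2 and 4 (ratio 0.876). Kcng1 was at 8.92 CPM in Control replicate 3 against 10.03 to 10.22 CPM in the other Control libraries (ratio 0.860). Kcng1 was called with and without Control replicate 3, and Kcnc1 was called in neither case.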

How the results depend on the processing

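The count of called channel genes was 7 (5 lower, 2 higher). It was 13 with DESeq2 and 13 without the expression filter, 14 at an adjusted p under 0.05 with no fold limit, and 1 (Kcnv1) when an absolute log2 fold change over 1 was also required. It stayed at 7 with limma-voom, the other scalings and the stricter filter, and was 5 with sex as a covariate. The fits without 1 library gave 4 to 6. The partner genes gave 12 and 0 calls at the latter 2 thresholds, and 5 to 8 without 1 library. Replicate numbers did not pair the libraries: the correlation of same-numbered deviations was -0.0099, -0.0541, -0.035 and 0.313, and no sources give a number a shared litter or day. With the replicate block 4 channel genes were called (Kcnv1, Kcna4, Kcng1 and Kcnc2) and 6 partner genes. Under each alternative of scaling the median log2 fold change of all genes moved by at most 0.02.

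Of 524 values of channel genes under alternatives, 458 kept direction and call, 24 were no longer called, 14 became called, 3 moved by more than the Control spread within 1 sex, and 25 changed sign, all of them uncalled and near 0. With sex as a covariate, Kcnh5 was -0.011, Kcna6 0.025 and Kcnf1 0.11. Kcnf1, at -0.001 on the log2 scale, was 0.000106 with DESeq2, 0.000535 with RLE scaling, 0.0037 with upper-quartile scaling, 0.018 without composition scaling, 0.0032 without the filter, 0.0021 with the stricter filter and 0.0021 with the replicate block. Without 1 library, the ranges that crossed 0 were -0.051 to 0.092 for Kcnh5, -0.0060 to 0.089 for Kcnh7, -0.079 to 0.0085 for Kcna6, -0.074 to 0.040 for Kcnb2, -0.092 to 0.0029 for Kcnc4, -0.055 to 0.071 for Kcnf1 and -0.025 to 0.117 for Kcng2. The causes were not tested.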
